A study of Rattus norvegicus with 24 samples.

Results

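The miR-99/100 and miR-125 families are followed here through 5 mature miRNAs of the rat miRNA array. All of them are 5p arms, the strand cut from the 5′ side of the hairpin precursor. They are rno-miR-99a-5p, rno-miR-99b-5p, rno-miR-100-5p, rno-miR-125a-5p and rno-miR-125b-5p. They were chosen by name among the 719 miRNAs of the array, and all 5 were among the 283 miRNAs that passed the filter on dim probes. Lung total RNA came from 24 Fischer-344 rats, an inbred strain, that were 7 to 8 weeks old at the start. The control group breathed filtered clean air, and the exposed groups inhaled hexanal, an aldehyde of indoor air, at 600, 1000 or 1500 ppm in a nose-only chamber. Each group held 6 rats, 3 males and 3 females, with 1 array per rat. The labels give daily sessions of 4 h, with 5 sessions a week over 5 weeks, while the methods of the study give a shorter period. Doses are in ppm in the sample titles, and the protocol text has the same figures in mg/m3, so the unit is used as a name only.

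A miRNA is a short RNA that guides Argonaute proteins to messenger RNAs, mainly through its seed, the bases near its 5′ end, and lowers the output of those messages. The miR-99/100 family is known for binding the messages of the growth kinase mTOR and the IGF1 receptor. miR-125 is the mammalian relative of worm lin-4 and, like let-7, is known for restraining the stem cell factor LIN28. Genes of the families lie beside a let-7 gene in paralogous clusters, and clustered miRNAs are often cut from a shared transcript.

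The mature sequences show the 2 seeds of the families, and they are printed because the array separates members of a family only by a few bases. They are taken from RefSeq (rat assembly GRCr8), 5′ to 3′, with the seed, bases 2 to 8, in capitals.
rno-miR-100-5p: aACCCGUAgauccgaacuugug
rno-miR-99b-5p: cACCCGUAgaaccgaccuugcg
rno-miR-125a-5p: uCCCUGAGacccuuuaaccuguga
rno-miR-125b-5p: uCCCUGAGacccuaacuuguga
Counted from the 5′ end, miR-99b-5p differs from miR-100-5p by the substitutions A1C, U11A, A16C and U21C. miR-125a-5p and miR-125b-5p share their first 13 bases and both end in uguga. They differ in length (24 and 22 bases) and in part of the stretch between. The RefSeq table gave a mature sequence for 4 of the 5 members (not for miR-99a-5p) and for 641 of the 719 miRNAs of the array.

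The let-7 companions of the 3 clusters are shown for the same reason, since let-7a, let-7c and let-7e differ from each other at 1 or 2 bases outside the seed.
rno-let-7a-5p: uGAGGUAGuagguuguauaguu
rno-let-7c-5p: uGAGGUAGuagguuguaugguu
rno-let-7e-5p: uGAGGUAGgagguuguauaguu
The substitution from let-7a to let-7c is A19G, and that from let-7a to let-7e is U9G.

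In GRCr8 the clusters lie on 3 chromosomes, all on the plus strand. On chromosome 11, Mir99a (hairpin chr11:29687392-29687472) and Mirlet7c1 (chr11:29688112-29688205) are followed by the mature miR-125b-5p of Mir125b2 (chr11:29732588-29732609). This cluster spans 45.2 kb within the long non-coding RNA gene LOC103693508. On chromosome 8, Mir100 (chr8:50798295-50798374), Mirlet7a-2 (chr8:50805203-50805298) and Mir125b1 (chr8:50850036-50850122) span 51.8 kb and overlap Mir100hgl and Lnc215. On chromosome 1, Mir99b (chr1:67350064-67350133), Mirlet7e (chr1:67350229-67350321) and Mir125a (chr1:67350675-67350759) span 0.696 kb within Spaca6. miR-125b-5p is encoded in both the chromosome 11 and the chromosome 8 clusters, and let-7a and let-7c have further genes, so the array gives the sum over their genes. The array files name the older build rn4, and no coordinates were converted between builds.

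The 24 arrays lay on 3 slides of 8, and slide was tied to sex and dose. On slide 1 all rats were male (3 control, 3 low-dose and 2 middle-dose animals). On slide 3 all were female (2 low-dose, 3 middle-dose and 3 high-dose animals). On slide 2 lay all 3 high-dose males, 1 middle-dose male, 1 low-dose female and every control female (3). The 75th percentile of probe intensity before scaling ran from 662 to 1226 scanner units, with slide means of 1068, 722 and 858. Lung epithelium and endothelium markers were above background on all arrays for 5 of 5 and 2 of 2 miRNAs, while the 2 brain markers passed the filter in 0 cases. Levels are given below as log2 of the scaled intensity, the mean of the 2 probes of a miRNA, and are not compared between miRNAs. In whole lung, fewer cells of a type and less RNA per cell cannot be told apart.

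No member passed the test against control at any hexanal dose. Of 15 comparisons of an exposed group with control, 0 passed limma's test after Benjamini-Hochberg adjustment over 283 miRNAs, against a background of 0% of all miRNAs at each of the 3 doses. Without adjustment, 5, 17 and 26 of the 283 miRNAs had a limma p under 0.05 at the 3 doses, and the members had 0 of 15. In the unpaired test that the methods of the study name, 2 of the 15 had an unadjusted p under 0.05, both at 600 ppm (miR-125a-5p and miR-125b-5p), and neither reached a 1.5-fold difference. The adjusted p of the members ran from 0.4999 to 0.996, and the 95% intervals of the differences lay between -0.20 and 0.43 on the log2 scale. For all 5 members the range of every exposed group overlapped that of control, while over all miRNAs the share without overlap was 0% for the low and middle doses and 0.353% for the high dose.

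Among the miR-99/100 family, the log2 level of miR-99a-5p in control lungs was lowest at 10.46, with a median of 10.68 and a highest value of 10.76. At 600, 1000 and 1500 ppm the medians were 10.72, 10.78 and 10.76, in ranges of 10.38 to 10.94, 10.48 to 11.00 and 10.57 to 10.91. The group means were in the order of the doses, from 10.65 ± 0.11 (SD, n = 6) in control to 10.77 ± 0.12 at 1500 ppm. The differences from control were 0.04, 0.09 and 0.12, each with a standard error of 0.10.

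miR-99b-5p ranged from 8.47 to 8.97 in control rats, with a median of 8.77. It ranged from 8.54 to 9.10 at 600 ppm (median 8.88), from 8.48 to 8.94 at 1000 ppm (median 8.87) and from 8.77 to 9.17 at 1500 ppm (median 8.91). The high-dose group was highest by median and mean (8.93 ± 0.15, SD, n = 6), but the highest control rat lay above its median. Its difference from control, 0.20 ± 0.11 (SE), was the largest of the 15 and had a 95% interval of -0.04 to 0.43.

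miR-100-5p ranged from 8.01 to 8.36 in control (median 8.18), from 8.08 to 8.34 at 600 ppm (median 8.27), from 8.16 to 8.45 at 1000 ppm (median 8.24) and from 8.00 to 8.38 at 1500 ppm (median 8.10). The lowest and the highest dose sat on opposite sides of control, by 0.07 and -0.04 with a standard error of 0.07. The 4 groups covered nearly the same range.

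In the miR-125 family, miR-125a-5p had the smallest spread of the 5 members over the 24 rats, with an SD of 0.08 and a highest rat 1.28 times the lowest. Its control values ran from 9.46 to 9.59 (median 9.54), and the exposed groups from 9.55 to 9.82 (median 9.61), 9.48 to 9.62 (median 9.55) and 9.52 to 9.76 (median 9.61) in the order of dose. The order of the means was control, 1000 ppm, 1500 ppm and 600 ppm, with differences from control of 0.10, 0.01 and 0.07 (SE 0.05) in the order of dose. The corresponding ratio of highest to lowest rat was 1.54 for miR-99a-5p, 1.63 for miR-99b-5p, 1.36 for miR-100-5p and 1.39 for miR-125b-5p.

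miR-125b-5p ranged from 11.55 to 11.85 in control (median 11.75), from 11.78 to 12.01 at 600 ppm (median 11.88), from 11.75 to 12.02 at 1000 ppm (median 11.86) and from 11.54 to 11.98 at 1500 ppm (median 11.72). The low-dose and middle-dose means stood 0.15 and 0.14 (SE 0.07) above control and the high dose 0.01 above it. Both intermediate groups began below the highest control rat. The 5 members also gave 0 calls in limma's test for any dose (adjusted p 0.711 to 0.845), 0 of 10 between neighbouring doses (0.596 to 0.999) and 0 for a linear trend (0.509 to 0.938), so no neighbouring doses were separated.

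**Figure D1:**
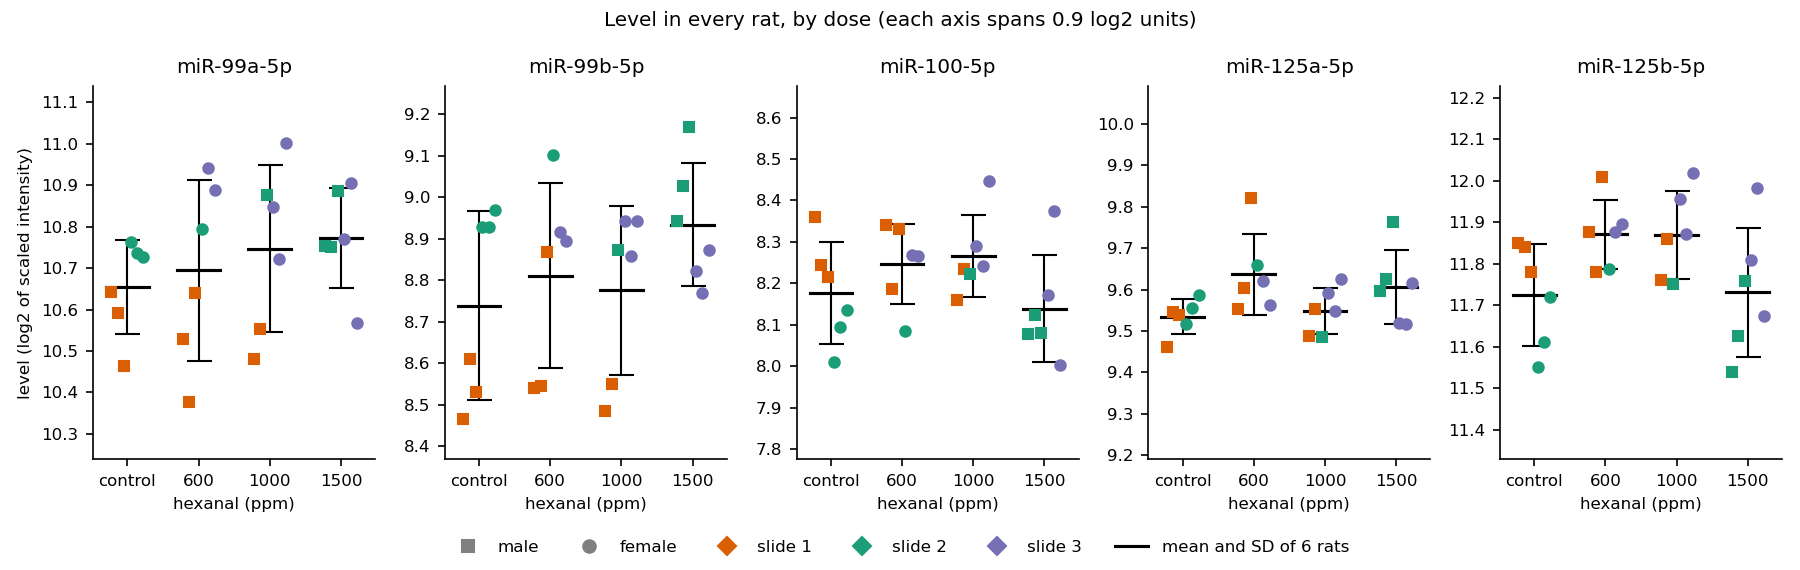
Log2 scaled intensity (vertical axis) of each member in every rat by hexanal dose (horizontal axis, ppm), with the mean and SD of each group of 6. Within each member the 4 groups overlap, and the means of miR-99b-5p run from 8.74 in control to 8.93 at 1500 ppm.

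With slide as a block the members again gave 0 of 15 calls against control, with adjusted p from 0.588 to 0.974 in limma and 95% intervals between -0.18 and 0.24. Within single slides, 40 tests of members between doses of the same sex gave differences from -0.17 to 0.18 and 0 calls (lowest adjusted p 0.471 in limma). These held 1 to 3 rats on a side and took their spread from all arrays.

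Both miR-99 members were lower in males than in females over all arrays, in a fit that left slide out. Over all doses, male minus female was -0.18 ± 0.06 for miR-99a-5p (SE, adjusted p = 0.0215 in limma) and -0.19 ± 0.07 for miR-99b-5p (adjusted p = 0.0332). These were 2 of 5 members, beside 43.8% of all miRNAs. miR-100-5p, miR-125a-5p and miR-125b-5p had differences of -0.03 to 0.02 (adjusted p 0.674 to 0.842). The call for miR-99b-5p was lost, with adjusted p up to 0.0616, without any 1 of 12 rats, those numbered 1, 3, 21, 22 and 23 (control), 6, 7 and 26 (600 ppm) and 11, 12, 31 and 33 (1000 ppm). With slide as a block, 0 of 5 members and 3.53% of all miRNAs passed, and the male minus female values became 0.19 ± 0.10 for miR-99a-5p (adjusted p = 0.339) and 0.02 ± 0.10 for miR-99b-5p (adjusted p = 0.935). Slide 2 was the one slide with both sexes, 4 rats of each, and there they were 0.06 ± 0.04 (adjusted p = 0.499) and 0.02 ± 0.07 (adjusted p = 0.892). Its males were at 1000 or 1500 ppm and its females were controls or at 600 ppm. Sex and dose therefore cannot be told apart within slide 2.

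By the mean of the 2 probes, the dose differences of miR-99b-5p and miR-125b-5p depended on sex when slide was left out of the fit. For miR-125b-5p the direction in males at 1500 ppm depended on the probe, as given below. The dose by sex interaction in limma gave F = 8.47 for miR-99b-5p (adjusted p = 0.0143) and F = 4.96 for miR-125b-5p (adjusted p = 0.0443). These were 2 of 5 members, beside 25.1% of all miRNAs. miR-100-5p, miR-99a-5p and miR-125a-5p had F values of 3.17, 2.66 and 1.72 (adjusted p 0.119, 0.163 and 0.305). The call for miR-125b-5p was lost, with adjusted p up to 0.100, without any 1 of 16 rats, those numbered 1, 2, 3, 21 and 22 (control), 6, 26, 27 and 28 (600 ppm), 11, 31 and 33 (1000 ppm) and 16, 17, 36 and 37 (1500 ppm). Leaving out 1 rat gave a call for miR-100-5p without female 38 (F = 5.19, adjusted p = 0.0464) and for miR-99a-5p without male 13 (F = 4.45, adjusted p = 0.0483).

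For miR-99b-5p the control males had log2 levels of 8.47, 8.53 and 8.61, and the males at 1500 ppm had 8.94, 9.03 and 9.17. Control females had 8.93, 8.93 and 8.97, and females at 1500 ppm had 8.77, 8.82 and 8.87. The groups overlapped in neither sex, which held for 56.5% of all miRNAs in males and for 19.8% in females, and the exposed rats were the higher ones in males and the lower ones in females.

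The difference at 1500 ppm was 0.51 ± 0.10 (SE) in males, past limma's threshold (adjusted p = 0.000811), as for 1 of 5 members and 36% of all miRNAs (20.1% higher and 15.9% lower). At 1000 ppm 0 of 5 members passed in males, beside 1.06% of all miRNAs (all of them lower), and 0 of 5 differed between the sexes, beside 0.707%. In females it was -0.12 ± 0.10 (adjusted p = 0.633), with calls for 0 of 5 members and 0% of all miRNAs. Males and females differed by 0.63 ± 0.14 (adjusted p = 0.00361), and this sex difference at 1500 ppm passed for 2 of 5 members and 35.3% of all miRNAs.

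For miR-125b-5p the control males had 11.78, 11.84 and 11.85 and the males at 1500 ppm 11.54, 11.62 and 11.76. Control females had 11.55, 11.61 and 11.72 and females at 1500 ppm 11.67, 11.81 and 11.98. Here the exposed males lay below all control males (no overlap in males in 56.5% of all miRNAs), and the females overlapped. The differences were -0.18 ± 0.08 in males (adjusted p = 0.0825 in limma) and 0.19 ± 0.08 in females (adjusted p = 0.335), and between the sexes -0.38 ± 0.11 (adjusted p = 0.0149). Without male 18 the value in males was -0.24 and passed (adjusted p = 0.0390).

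Control males and males at 1500 ppm shared no slide, nor did control females and females at 1500 ppm, so slide and dose cannot be told apart within a sex at that dose. With slide as a block, 0 of 5 members and 0% of all miRNAs passed the interaction test. The 1500 ppm value of miR-99b-5p was then 0.16 ± 0.14 in males (adjusted p = 1) and the sex difference 0.08 ± 0.20 (adjusted p = 0.937). For miR-125b-5p the block gave -0.12 ± 0.14 in males (adjusted p = 1) and -0.22 ± 0.20 between the sexes (adjusted p = 0.830). At 1000 ppm, male 13 lay on slide 2 and the other males on slide 1. Its miR-99b-5p level was 8.87, against 8.48 and 8.55 in the slide 1 males of the same dose, a difference of 0.36 ± 0.12 (adjusted p = 0.0396 in limma), as for 1 of 5 members and 19.8% of all miRNAs. The others were 0.36 for miR-99a-5p (adjusted p = 0.0692), 0.02 for miR-100-5p, -0.04 for miR-125a-5p and -0.06 for miR-125b-5p (adjusted p = 0.767). This sets 1 rat against 2, with the spread taken from the other arrays, so the rat and its slide cannot be told apart.

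The males of slides 1 and 2, which also differ in dose, differed for 4 of 5 members by the mean of the 2 probes. Only miR-99b-5p passed in the same direction with both of its probes. In males, slide 2 minus slide 1 gave 0.28 ± 0.05 for miR-99a-5p (adjusted p = 0.000864 in limma), 0.43 ± 0.07 for miR-99b-5p (0.000445), -0.13 ± 0.05 for miR-100-5p (0.0311), -0.18 ± 0.05 for miR-125b-5p (0.0162) and 0.05 ± 0.07 for miR-125a-5p (0.571). These comparisons of 4 with 8 rats passed for 4 of 5 members and 51.2% of all miRNAs, and slide and dose cannot be told apart in them. In females, slide 3 minus slide 2 passed for 0 of 5 members and 4.95% of all miRNAs. Slide carried 78.2% of the variance of miR-99b-5p, 64.8% of that of miR-99a-5p, 52.4% for miR-125b-5p, 40.5% for miR-100-5p and 2.40% for miR-125a-5p, beside a median of 37.6% over all miRNAs. Dose carried 13.6%, 8.01%, 29.7%, 19.97% and 27.1% for the same members in that order, beside a median of 13.8%, and these shares overlap because slide and dose do.

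The 2 probes of miR-125b-5p differed in opposite directions between slide 1 and slide 2. They are called here the brighter and the dimmer probe, after their mean signal. The brighter probe averaged 12.30, 12.80 and 12.84 on slides 1, 2 and 3, and the dimmer 11.39, 10.53 and 10.93 (log2, n = 8 each). In males, slide 2 minus slide 1 was 0.50 ± 0.06 for the brighter probe (adjusted p = 8.98e-06, limma over 555 probes, of which 51.7% passed) and -0.85 ± 0.06 for the dimmer (adjusted p = 1.20e-07). In females, slide 3 minus slide 2 was 0.03 ± 0.07 for the brighter (adjusted p = 0.824) and 0.40 ± 0.07 for the dimmer (adjusted p = 0.00484, 10.1% of probes called). The difference between the 2 probes thus shifted by 1.37 log2 units from slide 1 to slide 2, the fourth largest such shift among 215 miRNAs with 2 kept probes, whose median shift was 0.283.

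At 1500 ppm in males the brighter probe of miR-125b-5p was 0.50 ± 0.13 above control (adjusted p = 0.00436, limma over probes, 42.7% of them called) and the dimmer -0.86 ± 0.14 (adjusted p = 0.000339). The direction of that difference thus depended on the probe. Both probes of miR-99b-5p were higher past the threshold, by 0.63 ± 0.11 and 0.39 ± 0.09. For the other 4 members the shift between probes was 0.188 to 0.426. miR-99a-5p moved through its brighter probe (10.79, 11.26 and 11.27 by slide, against 10.27, 10.31 and 10.39 for the dimmer). For miR-100-5p, slide 2 minus slide 1 in males was -0.31 ± 0.05 with the dimmer probe (adjusted p = 0.000281, limma over probes). With the brighter probe it was 0.04 ± 0.05 (adjusted p = 0.557 in limma).

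**Figure D2:**
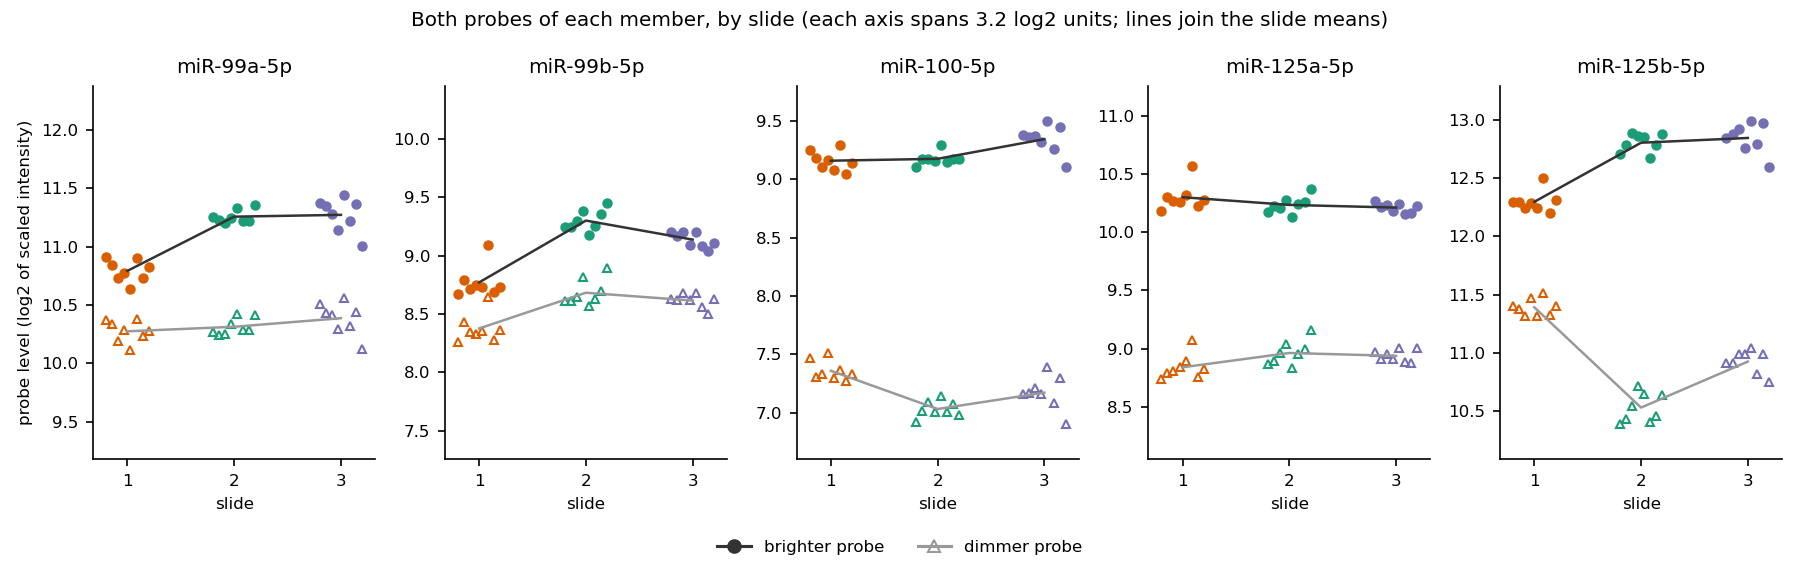
Log2 scaled intensity of the 2 probes of each member in every rat by slide, with slide means (8 rats per slide). The probes of miR-125b-5p diverge from slide 1 to slide 2, from 12.30 to 12.80 and from 11.39 to 10.53, while those of miR-125a-5p run from 10.30 to 10.23 and from 8.84 to 8.96.

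Within slides the probes of each member varied together. With slide means taken out, Pearson's r between the 2 probes over 24 rats was 0.97 for miR-99a-5p, 0.94 for miR-99b-5p, 0.85 for miR-100-5p, 0.93 for miR-125a-5p and 0.79 for miR-125b-5p. Pooled over slides the values were 0.66, 0.96, 0.27, 0.50 and -0.70.

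Rat by rat, members encoded in the same cluster varied together within slides. With slide means taken out, miR-99b-5p and miR-125a-5p, neighbours on chromosome 1, had r = 0.94 (n = 24, permutation p = 1e-05, the smallest that the permutations can give, adjusted over 16 pairs 0.00016) and Spearman's rho = 0.89 (permutation p = 1e-05). Within slides 1, 2 and 3 the r was 0.96, 0.97 and 0.82 (8 rats each), and without the 2 rats farthest from the median it was 0.85. Without removing slide means it was 0.55. Male 8 at 600 ppm, whose array had the lowest percentile of slide 1 (677), also had the highest values of slide 1 for both, 0.29 and 0.25 above the slide mean.

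miR-100-5p and miR-125b-5p, both encoded on chromosome 8, had r = 0.79 (permutation p = 2e-05, adjusted 0.00016) and rho = 0.75 (permutation p = 7e-05). Their r was 0.73, 0.50 and 0.98 within the slides, 0.66 without the 2 farthest rats and 0.87 pooled. miR-99a-5p and miR-125b-5p, both encoded on chromosome 11, had r = 0.75 (permutation p = 7e-05, adjusted 0.00032) and rho = 0.69 (permutation p = 0.00044). Their r was 0.72, 0.61 and 0.88 within the slides, 0.60 without the 2 farthest and 0.19 pooled. The miR-125b-5p signal is the sum over its genes on chromosomes 8 and 11, so the part of each in these r values cannot be told. These 3 pairs stayed at 0.80 to 0.95 when the means of slide, sex and dose were all removed. Over all 39903 pairs of the 283 miRNAs, the median r with slide means out was 0.09, and 5% of pairs lay above 0.56.

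Pairs of the same family that lie in different clusters had r from 0.08 to 0.80. miR-99a-5p and miR-100-5p had r = 0.80 (permutation p = 8e-05, adjusted 0.00032) and rho = 0.66 (permutation p = 0.00142), with 0.76, 0.35 and 0.91 within slides, 0.61 without the 2 farthest rats and 0.17 pooled. Without a sequence of miR-99a-5p, its likeness to miR-100-5p could not be shown. The part of signal shared between their probes in this r was not tested. miR-99b-5p had r = 0.29 with miR-99a-5p (permutation p = 0.130, rho = 0.26) and 0.08 with miR-100-5p (permutation p = 0.671, rho = 0.07). miR-125a-5p and miR-125b-5p had r = 0.40 (permutation p = 0.048) and rho = 0.33 (permutation p = 0.125). Among the member pairs, r over the 24 rats was thus highest within 2 groups. These were miR-99b-5p with miR-125a-5p, and miR-99a-5p, miR-100-5p and miR-125b-5p with each other. The groups were not separate, since miR-125b-5p had r = 0.50 with miR-99b-5p (permutation p = 0.0131, adjusted 0.0299). Its rho was 0.43 (permutation p = 0.046, adjusted 0.105), and its r within slides 0.84, 0.49 and 0.18. The other pairs between the groups had r of 0.01 to 0.40. The difference between r values was not tested. On slide 2 alone, r within the second group was 0.35 to 0.61 (exact permutation p 0.130 to 0.409). There rho was -0.24 for miR-99a-5p with miR-100-5p. Female 38 at 1500 ppm had the lowest value of slide 3 for miR-99a-5p, miR-100-5p and miR-125b-5p (-0.26, -0.25 and -0.21 from the slide mean). Using 1 probe at a time, r ran from 0.89 to 0.95 for miR-99b-5p with miR-125a-5p, 0.63 to 0.85 for miR-100-5p with miR-125b-5p, 0.66 to 0.88 for miR-99a-5p with miR-100-5p and 0.59 to 0.77 for miR-99a-5p with miR-125b-5p.

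**Figure D3:**
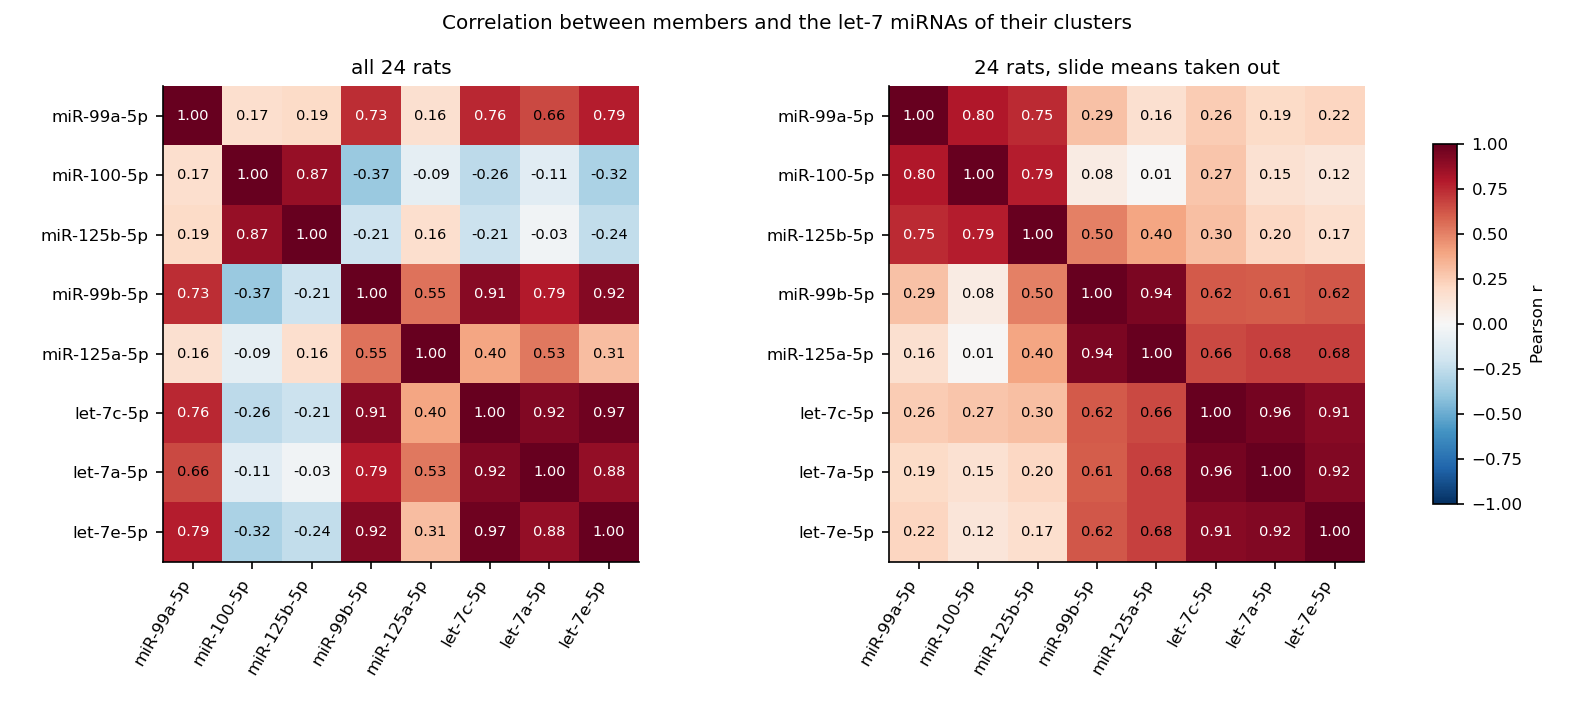
Pearson's r of log2 levels over 24 rats with slide means removed, for the 5 members and their let-7 companions. miR-99b-5p and miR-125a-5p stand at 0.94, miR-99a-5p, miR-100-5p and miR-125b-5p at 0.75 to 0.80, and the 3 let-7 miRNAs at 0.91 to 0.96.

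**Figure D4:**
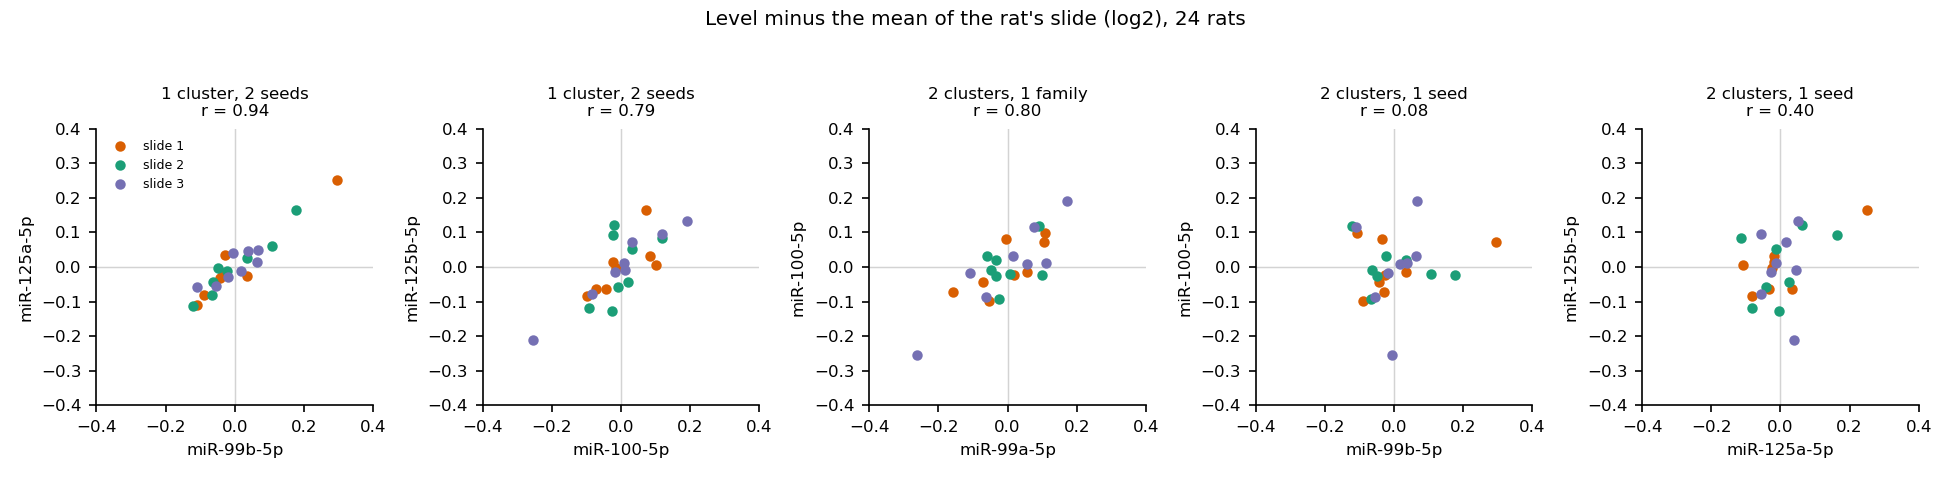
Log2 level minus the slide mean for the pairs of members named in the panel titles, with 1 point per rat marked by slide. The pair miR-99b-5p and miR-125a-5p lies closest to a line, with r = 0.94.

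With slide means out, the closest to miR-99b-5p were miR-125a-5p and miR-484 (0.81), those to miR-125a-5p were miR-99b-5p and miR-103-3p (0.79), and those to miR-125b-5p were miR-100-5p and miR-99a-5p. miR-99a-5p was closest to miR-100-5p and miR-125b-5p, and miR-100-5p to miR-99a-5p and miR-199a-3p (0.79). Without removing slide means, the closest were miR-214-3p (0.88) and miR-378a-5p (0.86) for miR-99a-5p, miR-103-3p (0.95) and miR-484 (0.95) for miR-99b-5p, and miR-30d-5p (0.74) and miR-331-3p (0.70) for miR-125a-5p. On that scale miR-100-5p and miR-125b-5p were closest to each other (0.87) and then to miR-199a-5p (0.84 and 0.72).

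Of the let-7 companions, let-7e-5p had r = 0.62 with miR-99b-5p (permutation p = 0.00535, adjusted 0.0143; rho = 0.56, permutation p = 0.00629) and 0.68 with miR-125a-5p (permutation p = 0.00164, adjusted 0.00525; rho = 0.68, permutation p = 0.00076), slide means out. Without the 2 farthest rats these were 0.41 and 0.53. Within slides 1, 2 and 3 the r was 0.79, 0.32 and 0.80 with miR-99b-5p, and 0.84, 0.38 and 0.95 with miR-125a-5p. Pooled over slides it was 0.92 with miR-99b-5p and 0.31 with miR-125a-5p. let-7c-5p and let-7a-5p, of the other clusters, had nearly the same values as let-7e-5p with slide means out (given as a description). These were 0.62 and 0.61 with miR-99b-5p and 0.66 and 0.68 with miR-125a-5p. With the members of their own clusters, let-7c-5p and let-7a-5p had r of 0.15 to 0.30 (permutation p 0.136 to 0.451) and rho of 0.11 to 0.31. Pooled over slides, r was 0.76 for let-7c-5p with miR-99a-5p and -0.21 to -0.03 for the other pairs. The probes of let-7a, let-7c and let-7e match near-identical RNAs, and their r with each other was 0.91 to 0.96.

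None of the 3 companions passed against control. At 1500 ppm the differences were 0.15 ± 0.06 for let-7a-5p, 0.20 ± 0.10 for let-7c-5p and 0.32 ± 0.14 for let-7e-5p (SE, adjusted p = 0.498 in limma for let-7a-5p and let-7e-5p). In males at 1500 ppm all 3 were higher, beside 36% of all miRNAs called (20.1% higher), by 0.25 ± 0.08 (adjusted p = 0.0117), 0.45 ± 0.09 (0.00122) and 0.68 ± 0.11 (0.000491), against 0.51 for miR-99b-5p. With slide as a block, where male 13 alone links slides 1 and 2, these became 0.06, 0.04 and 0.13.

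Of 11 opposite arms listed for the cluster hairpins, 9 were on the array and 5 passed the filter: miR-99a-3p, miR-99b-3p, miR-125a-3p, miR-125b-2-3p and let-7a-1-3p. miR-100-3p, miR-125b-1-3p and let-7e-3p were above background on 0 of 24 arrays and let-7c-1-3p on 2. Of the 3p arms of miR-125b, the one detected was thus that named for Mir125b2, the gene of the chromosome 11 cluster. Some of these arms lay near the floor of the scaled intensity, 11.3. Their group means in log2 were 3.95 to 4.01 for miR-99b-3p and 4.28 to 4.36 for miR-125b-2-3p. None of the 5 passed against control at any dose. The sex difference passed for 3 of 5 in limma, beside 43.8% of all miRNAs. Male minus female was -1.07 ± 0.20 for miR-125a-3p (adjusted p = 0.00113), -0.14 ± 0.05 for miR-125b-2-3p (adjusted p = 0.0177) and 0.29 ± 0.07 for let-7a-1-3p (adjusted p = 0.00384). With slide as a block these were -1.62 ± 0.53 (adjusted p = 0.122), -0.16 ± 0.11 (adjusted p = 0.430) and 0.16 ± 0.12 (adjusted p = 0.475).

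Among the 641 miRNAs of the array with a sequence, 1 other shares a member's seed, miR-351-5p, printed here to show that it matches the miR-125 family in bases 1 to 8 and diverges after them.
rno-miR-351-5p: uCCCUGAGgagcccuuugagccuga
It did not pass against control, and it was higher in males by 0.24 ± 0.08 (adjusted p = 0.0268 in limma), which became 0.01 with slide as a block (adjusted p = 0.960). miR-10b-5p, of the related miR-10 family, had an interaction F of 8.94 (adjusted p = 0.0143) and stood -0.89 ± 0.19 below control in males at 1500 ppm (adjusted p = 0.00122). The value with slide in the fit, where male 13 alone links slides 1 and 2, was -0.13.

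RefSeq also annotates miR-3588 on the strand opposite to miR-125b-5p of the chromosome 11 cluster (chr11:29732588-29732609). It is printed because it is the exact reverse complement of that miRNA.
rno-miR-3588: ucacaaguuagggucucaggga
miR-3588 was above background on all 24 arrays, and its r with miR-125b-5p was 0.23 with slide means out and 0.29 pooled, as a description. The antisense partners of let-7a and let-7e, miR-3596a and miR-3596c, were above background on 0 arrays.

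Markers of other cells were summed per array on the scaled intensity scale and set against the members with slide means out. miR-100-5p followed the 5 smooth muscle and fibroblast markers (the miR-143/145 and miR-199/214 group, all 5 kept, slide medians 10151, 9414 and 9852), with r = 0.84 (permutation p = 1e-05, adjusted over 40 relations 0.0004) and rho = 0.75 (permutation p = 4e-05, adjusted 0.0016). Without the 2 farthest rats r was 0.73. It had r = 0.72 with the striated muscle sum (permutation p = 0.00028, adjusted 0.0056; rho = 0.59, adjusted 0.0685), of which 3 of 5 markers passed the filter and the sum ran from 128 to 1332. miR-99a-5p had r = 0.65 with the smooth muscle and fibroblast sum (permutation p = 0.00238, adjusted 0.0317; rho = 0.58, adjusted 0.0685), and 0.41 without the 2 farthest rats. These were the 3 of 40 relations past the threshold by r, and 1 passed by rho. The part of these cells in the members' levels was not tested.

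With slide means out, the array percentile had r = -0.65 with miR-125a-5p (adjusted permutation p = 0.0818) and -0.60 with miR-99b-5p (adjusted permutation p = 0.123). These fell to -0.34 and -0.24 without the 2 farthest rats. The part of array brightness in the r between these 2 members was not tested. Erythroid markers differed by slide, with medians of 2352, 1466 and 2041, and the liver marker was at 11.3 to 64.2. The part of array brightness and of blood in the differences between slides was not tested.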

How the data were processed

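Lung total RNA of 24 rats was labelled with Cy3 and hybridised to Agilent rat miRNA arrays. Per the file headers, the deposited scanner files were made with Agilent Feature Extraction 11.5.1.1 and give spot intensity after background correction, with no scaling between arrays. The authors' series table holds the total gene signal as an intensity, also unscaled, with 10131 of 17256 values set to 1. The methods of the study do not describe these arrays.

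Control spots and outlier spots were left out (86 of 2400 member spots). Intensity was scaled to the 75th percentile of each array over the 394 probes above background on all arrays, floored at 11.3, and log2 was taken. Each member had 2 probes of 10 spots, and 0 of its spots were below background or saturated. A probe was kept when above background on at least 6 arrays. This left 555 probes of 283 miRNAs, and kept probes of 1 miRNA were averaged. Groups came from the titles and the sex and treatment labels.

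All 283 miRNAs were tested with limma 3.58.1 in R 4.3.3, two-sided, with Benjamini-Hochberg adjustment at 0.05. Dose effects were fitted with 1 mean per dose group, without covariates, and interactions with the 8 means of dose and sex. The fits without slide were tested on simulated data that held no slide offsets. That test therefore does not bear on the shared layout of slide, sex and dose. Correlations used Python 3.11.15 and permutation within slides (100000 draws, exact within 1 slide of 8 rats), two-sided. Sequences were matched to RefSeq by name. The miRNAs named were the members, the companions, opposite arms, same-seed miRNAs and miR-10 family, and the 2 miRNAs most alike each member. The antisense miRNAs, the per-probe tests, the single dimmer probe and 7 of the 16 pairs were added after seeing the data. The members and lists were chosen with earlier results of these data known.

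Alternatives covered scaling (quantile normalization, a percentile over all probes), background (normexp on the median signal with an offset of 50), probes (no filter, brightest probe), source (series table, total gene signal), slide (fixed or random block), the methods' t-test and leaving out each array. The number of arrays limits the precision. The titles number single rats, and p-values measure the spread between them.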

Additional observations from a re-analysis of the deposited data

Results flagged for a closer look

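The dose by sex interaction passed limma's test for 2 of 5 members, 2 of 3 let-7 companions and 1 of 2 miR-10 family members, beside 25.1% of all miRNAs, with F = 8.47 for miR-99b-5p, F = 4.96 for miR-125b-5p, F = 5.82 for let-7c-5p, F = 8.48 for let-7e-5p and F = 8.94 for miR-10b-5p. With slide as a block none of the members passed, but that fit rests on 1 rat per link between slides. The slides cannot be told apart from dose within a sex at 1500 ppm. For miR-125b-5p the direction in males at that dose differed between its 2 probes. No rat stood apart from the other 5 of its dose group in Dixon's test (0 of 20 groups of a member and a dose above the critical value).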

How the results depend on the processing

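The 0 of 15 calls against control held under every alternative run, including leaving out each array. For the other counts, the main values were 2 of 5 members for the sexes, 2 for the interaction, 1 for any dose within a sex, and 4 of 9 cluster pairs with pooled slides. The sex count was 0 with the percentile over all probes, no filter, normexp, the series table and either slide block, and within slide 2, and 1 with quantile normalization or the total gene signal. The interaction count was 1 with no filter and 0 with normexp, the total gene signal and either block. The count within a sex was 3 with the percentile over all probes, quantile normalization or the brightest probe, 4 with the dimmer probe or the series table, 2 with the total gene signal, and 0 with normexp and either block. Beside these, 35.3% of all miRNAs passed for any dose in males (100 of 283) and 0% in females. The counts in males over all miRNAs were 108, 96, 130 and 103 of 283 with the percentile over all probes, quantile normalization, the brightest probe and the dimmer probe, and 112 and 66 of 325 with the series table and the total gene signal. Within slide 2, 1 cluster pair passed. Leaving out 1 array gave 1 to 3 for the interaction, 1 to 2 for the sexes and 1 to 2 within a sex.

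In the comparisons with control, none of the log2 differences that changed sign had passed the test, and they include the largest, that of miR-99b-5p at 1500 ppm (0.20). miR-99a-5p at 600 ppm became -0.027 with the series table, -0.015 with normexp, -0.051 within slide 1, and ran from -0.0090 to 0.10 with 1 array left out. At 1000 ppm within slide 1, miR-99a-5p was -0.049, miR-99b-5p -0.019, miR-100-5p -0.076 and miR-125b-5p -0.014. miR-125a-5p at 1000 ppm was -0.014 with quantile normalization, -0.011 with the brightest probe, -0.0027 with normexp and -0.0014 to 0.027 with 1 array left out, and miR-99b-5p then ran from -0.018 to 0.094. At 1500 ppm, miR-100-5p was 0.017 with the percentile over all probes and 0.053 with the brightest probe. There miR-125a-5p was -0.028 with the total gene signal and -0.22 with the series table, and miR-99b-5p was -0.066 with the series table. miR-99a-5p was -0.13 with the series table, -0.037 with slide as a fixed block and -0.014 as a random one. miR-125b-5p was -0.029 with quantile normalization, -0.15 with the series table, -0.00113 with normexp, -0.23 with the dimmer probe, -0.019 with the fixed block, -0.015 with the random block, and -0.044 to 0.044 with 1 array left out.

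Male minus female for miR-99a-5p was 0.19 with the fixed block, 0.0018 with the random block and 0.061 within slide 2, and for miR-99b-5p it was 0.016 with the fixed block, 0.022 within slide 2 and 0.0049 with the series table. At 1500 ppm in females, miR-99b-5p was 0.074 with the fixed block, 0.0076 with the random block and 0.048 with the series table, where males gave -0.18 and the sex difference -0.23. With the brightest probe miR-125b-5p was 0.50 in males and -0.0052 in females, a sex difference of 0.50. The series table has no scaling between arrays, and its median over all miRNAs was -0.71 for 1500 ppm in males, -0.79 for that sex difference, -0.30 at 1500 ppm, 0.11 for 1500 ppm in females and 0.18 for male minus female. With normexp the median was 0.32 at 600 ppm, -0.11 at 1000 ppm, -0.24 for the sexes, 0.14 for 1500 ppm in males, -0.10 in females and 0.25 for that sex difference. With the total gene signal it was -0.10 at 1500 ppm, -0.19 in males and -0.15 for the sex difference, and with the percentile over all probes 0.19 in males and 0.29 for the sex difference. All other medians were within 0.1 of 0. With slide means out, r became 0.30 for miR-125b-5p with let-7c-5p, 0.15 for miR-100-5p with let-7a-5p and 0.20 for miR-125b-5p with let-7a-5p, and within slide 1 it was 0.85, 0.56 and 0.87. On slide 3 miR-125b-5p with let-7c-5p had 0.23, and on slide 2 miR-99a-5p with let-7c-5p had -0.10. The cause of these changes was not tested.

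With a fold of 1.5 and no adjustment, the methods' t-test called 0 members at any dose, and 0, 3 and 2 of the 283 miRNAs at 600, 1000 and 1500 ppm. Without the fold, its unadjusted p at 600 ppm was 0.0366 for miR-125b-5p and 0.0408 for miR-125a-5p. No paired analysis was possible because the rats carry different numbers in every group. The number of arrays and the shared layout of slide, sex and dose limit these comparisons, while all member spots were above background.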
